A study of Drosophila melanogaster with 7 samples.

Results

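Of the 17481 genes in the deposited expression table, 78 carried only a CG number, lay under 1 FPKM in every Ctrl library and reached at least 2 FPKM in every ScOE library. FPKM scales the fragments of a gene by transcript length and by the mapped fragments of the library, so it is a level per length. CG numbers are the working names that fly genes carry until they are studied. The 78 genes were 1.06% of the 7339 CG-numbered rows and 2.10% of the 3720 CG-numbered rows under 1 FPKM in every Ctrl library. The same pattern was met by 97 of 7649 named rows and by 6 of 2493 rows with the CR numbers of non-coding genes, and 1.04% of all rows met it. The reverse pattern, under 1 FPKM in every ScOE library and at least 2 FPKM in every Ctrl library, was met by 3 CG-numbered rows. Since the FPKM values themselves chose the 78 genes, all of their ScOE and Ctrl levels below are a description and no test is given for them.

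The ScOE group held 4 libraries of midgut cells in which Scute (Sc) was overexpressed, and the Ctrl group held 3 libraries of wild-type cells. All 7 came from Drosophila melanogaster adults of day 2. The cells carried GFP and were collected by FACS at about 10000 per library; the sample labels call them stem cells and the design text calls them progenitors. The driver of the sc transgene, the driver of GFP and the time of expression are not given in the sources used here. Nothing in the labels says that libraries of a group came from separate animals or cultures, so p-values measure the spread between these libraries only.

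Sc is a proneural basic helix-loop-helix transcription factor. In the adult midgut the stem cells renew the absorptive enterocytes and the hormone-secreting enteroendocrine cells, and proneural factors are known to commit stem cells to the enteroendocrine fate. Enteroendocrine cells package peptide hormones into dense-core vesicles and release them when calcium enters through voltage-gated channels. sc itself had 189.7, 122.3, 170.2 and 66.0 FPKM in ScOE 1 to 4, against 2.44, 0.978 and 0.886 FPKM in Ctrl 1 to 3. All ScOE libraries were far above all Ctrl libraries, with ScOE 1 highest and ScOE 4 lowest.

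The summed FPKM per library was 1059344 to 1382537 in ScOE and 1924963 to 2614335 in Ctrl, and fragment numbers are unknown from these values. All 10 stem cell and enteroblast markers reached 1 FPKM, with a summed level of 797.2 to 1002 FPKM in ScOE and 1485 to 1900 FPKM in Ctrl. The largest of them, E(spl)mbeta-HLH, had 262.4 to 347.9 FPKM in ScOE and 835.7 to 1060 FPKM in Ctrl. In the other direction spdo had 24.2 to 31.8 FPKM in ScOE and 2.83 to 4.42 FPKM in Ctrl. Of the 10, limma called 1 rising and 4 falling, against 17.6% rising and 21.3% falling of all tested genes. The defining factor of both cell types, esg, had 213.2 to 253.7 FPKM in ScOE and 230.4 to 361.9 FPKM in Ctrl. All 12 enteroendocrine markers reached 1 FPKM, with a summed level of 3610 to 9952 FPKM in ScOE and 162.0 to 1234 FPKM in Ctrl. The 13 enterocyte markers summed to 270.1 to 9118 FPKM in ScOE and 665.3 to 27413 FPKM in Ctrl. Of 10 neuron markers 7 reached 1 FPKM, with sums of 69.4 to 88.8 FPKM in ScOE and 9.04 to 10.3 FPKM in Ctrl. The highest neuron marker, nSyb, is also on the enteroendocrine list, and had 38.4 to 56.5 FPKM in ScOE and 0.566 to 1.71 FPKM in Ctrl. Visceral muscle markers summed to 175.1 FPKM in ScOE 3, to 1.15 to 2.37 FPKM in the other ScOE libraries and to 1.51 to 13.2 FPKM in Ctrl. Markers of hemocytes, trachea and glia had lower sums in ScOE than in Ctrl. The largest sums were those of glia, with 299.5 to 354.5 FPKM in ScOE and 537.0 to 737.9 FPKM in Ctrl. The highest glia marker, loco, had 117.4 to 152.4 FPKM in ScOE and 306.7 to 379.8 FPKM in Ctrl. Eaat1 was higher in ScOE, at 15.2 to 24.5 against 0 to 6.49 FPKM. Of 6 tested glia markers limma called 1 rising and 3 falling. The highest hemocyte marker, crq, had 42.8 to 55.1 FPKM in ScOE and 85.4 to 131.9 FPKM in Ctrl, whereas Sr-CI had 3.09 to 4.62 and 1.16 to 3.45 FPKM. The 10 fat body markers stayed under 1 FPKM in all libraries. Of 10 testis markers 1, vas, reached it; Mst84Db, Mst98Ca and sa were at 0 in every library, and the testis sum was 1.35 to 4.15 FPKM in ScOE and 0.146 to 0.537 FPKM in Ctrl. These are bulk libraries, in which fewer cells of a type and less RNA per cell cannot be told apart. The part of these marker changes in the levels of the 78 genes was not tested.

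Mean levels of the 78 genes in ScOE ran from 2.30 to 32.1 FPKM with a median of 5.63 FPKM, and mean levels in Ctrl from 0 to 0.838 FPKM with a median of 0.263 FPKM. The median log2 difference, ScOE minus Ctrl on the log2(FPKM + 1) scale, was 2.35, with a range of 1.10 to 4.53. In ScOE 33 genes were at 5 FPKM or more in every library, 12 were at 10 FPKM or more in every library, and 36 had a mean under 5 FPKM. In Ctrl they were low more often than silent: 3 were listed at 0 in all Ctrl libraries, 19 in at least 1, and 44 were under 0.5 FPKM in all of them. A listed 0 may also be a failed estimate, since 2699 genes were at 0 in every library. All 78 passed the filter used for testing, at least 1 FPKM in 3 libraries, through their ScOE values alone, so their number among called genes carries no information.

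**Figure D1:**
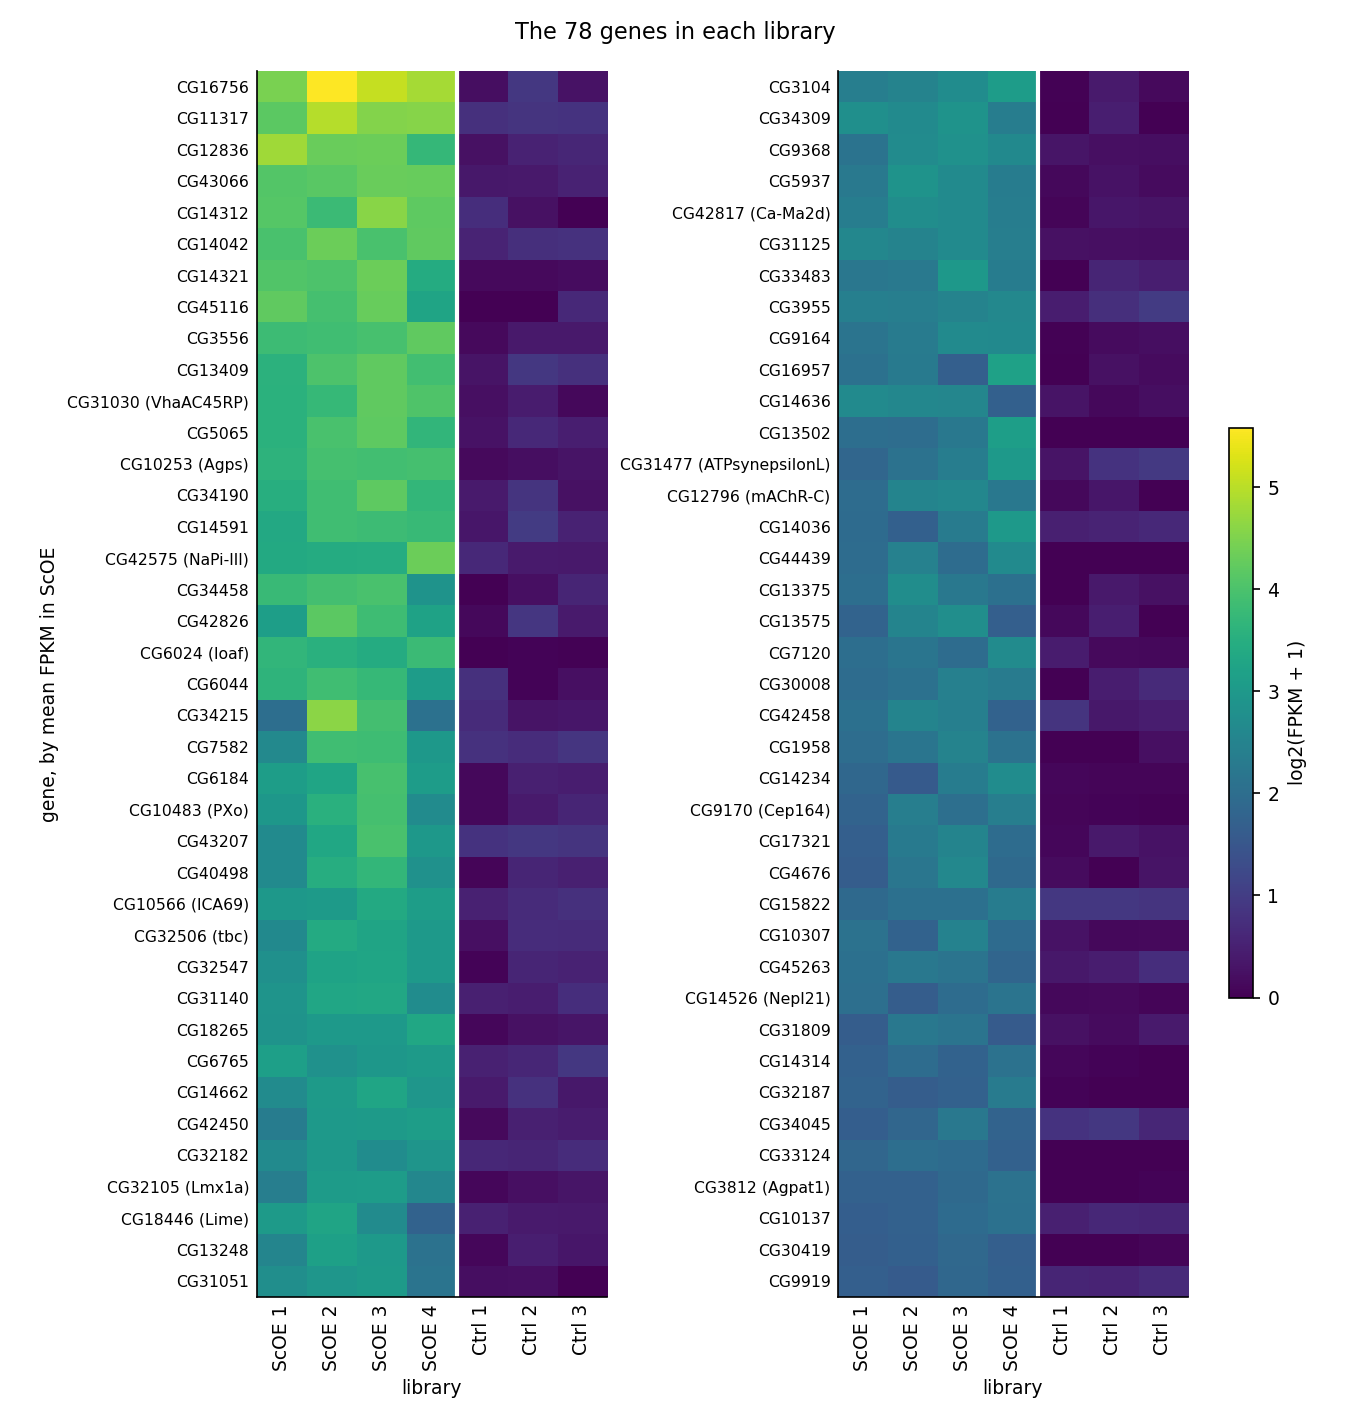
Level of each of the 78 genes (rows, sorted by mean FPKM in ScOE, in a left and a right block) in the 4 ScOE and 3 Ctrl libraries (columns), as log2(FPKM + 1). Every gene is brighter in all 4 ScOE libraries than in all 3 Ctrl libraries, as the rule requires, and the levels in ScOE run from 2.00 FPKM (CG14234 in ScOE 2) to 47.1 FPKM (CG16756 in ScOE 2).

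All 78 are annotated as protein coding. The longest protein of each had a median of 390 residues and a range of 44 to 2051, against a median of 378 residues in the 3437 other CG-numbered coding genes that passed the same filter. Genes spanning at least 10000 bases were 18 of the 78 (23.1%), against 9.43% of those 3437 and 8.35% of all 7161 other CG-numbered coding genes. Single-exon genes were 10 of 78 (12.8%), against 10.8% of the 3437. The 78 lay on all large chromosome arms, with 14 on X, 9 on 2L, 21 on 2R, 16 on 3L and 18 on 3R. The arms farthest from the share of all CG-numbered coding rows were 2L, with 11.5% of the 78 against 18.8%, and 2R, with 26.9% against 19.8%. These shares are descriptions, and no test of them was made.

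The annotation has since given names to 15 of the 78 (19.2%), against 1322 of 7261 other CG-numbered rows (18.2%), and a further 6 carry a RefSeq synonym that names a function. The term uncharacterised therefore fits 63 genes by symbol. The 21 genes with a name or synonym are described first, by role, and the roles given are background from those names.

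Membrane transport was the role with most of the 21 genes, at 5, of which NaPi-III and PXo have a name and the others a synonym. CG43066, listed by RefSeq under a synonym of the SLC6 family of sodium-coupled amino acid and transmitter carriers, had 16.0, 16.9, 18.9 and 18.4 FPKM in ScOE 1 to 4, against 0.291, 0.295 and 0.443 FPKM in Ctrl 1 to 3. It was the most even of the 78 across ScOE libraries, with the highest at 1.18 times the lowest. NaPi-III (CG42575, chromosome 3L, bases 11123348 to 11134663, plus strand), a sodium-dependent phosphate transporter of the PiT family, had 9.52, 9.79, 9.97 and 19.1 FPKM in ScOE 1 to 4, against 0.574, 0.319 and 0.304 FPKM in Ctrl 1 to 3. ScOE 4 was about double the other ScOE libraries for this gene. PXo (CG10483), which moves phosphate into storage organelles of gut cells, had 6.82, 10.8, 14.4 and 5.46 FPKM in ScOE 1 to 4, against 0.0940, 0.319 and 0.504 FPKM in Ctrl 1 to 3, with ScOE 3 highest. CG13248, listed by RefSeq as a cationic amino acid transporter, had 4.85, 8.03, 7.13 and 3.30 FPKM in ScOE 1 to 4, against 0.0657, 0.381 and 0.273 FPKM in Ctrl 1 to 3. For both genes ScOE 2 and ScOE 3 were above ScOE 1 and ScOE 4. CG33124, listed by RefSeq as a member of the SLC5 family of sodium-coupled solute carriers, had 2.58, 3.06, 2.86 and 2.33 FPKM in ScOE 1 to 4 and was listed at 0 in Ctrl 1 to 3.

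Agps and CG5065 led the lipid enzymes. Agps (CG10253), alkylglycerone phosphate synthase, which makes the ether bond of ether lipids in peroxisomes, had 11.3, 14.4, 13.9 and 14.4 FPKM in ScOE 1 to 4, against 0.107, 0.147 and 0.233 FPKM in Ctrl 1 to 3. CG5065 (chromosome 2R, bases 16607654 to 16624894, plus strand) is listed by RefSeq as a fatty acyl-CoA reductase, an enzyme class that makes the fatty alcohols used in that reaction, and had 10.8, 14.9, 17.4 and 11.7 FPKM in ScOE 1 to 4, against 0.216, 0.571 and 0.387 FPKM in Ctrl 1 to 3. Both were above 10 FPKM in every ScOE library and under 1 FPKM in every Ctrl library. CG31140, listed by RefSeq as a diacylglycerol kinase, which converts diacylglycerol to phosphatidic acid, had 6.45, 8.96, 9.15 and 5.55 FPKM in ScOE 1 to 4, against 0.413, 0.374 and 0.651 FPKM in Ctrl 1 to 3. Agpat1 (CG3812), an acylglycerol-phosphate acyltransferase that makes phosphatidic acid by another route, had 2.31, 2.33, 2.73 and 3.31 FPKM in ScOE 1 to 4, against 0.0394 FPKM in Ctrl 3 and less than 1e-10 FPKM in Ctrl 1 and Ctrl 2. It lay close to the lower bound of the rule in ScOE. The 3 other genes with an Agpat symbol were not called: Agpat2 had 99.3 ± 21.7 FPKM in ScOE and 88.1 ± 9.78 FPKM in Ctrl (SD, n = 4 and n = 3), Agpat3 209.8 ± 11.3 and 185.4 ± 15.0 FPKM, and Agpat4 9.28 ± 6.60 and 6.35 ± 4.86 FPKM. Agpat3 rose under quantile normalization (adjusted p = 0.012) and, with Agpat2, under equal FPKM totals (adjusted p = 0.0032 and 0.008).

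In vesicle traffic and proton pumping 4 genes had a name. ICA69 (CG10566), whose relatives in worm and mouse act in the formation of dense-core vesicles, had 6.94, 7.27, 9.51 and 7.62 FPKM in ScOE 1 to 4, against 0.418, 0.610 and 0.715 FPKM in Ctrl 1 to 3. tbc (CG32506), a protein with the TBC domain of Rab GTPase-activating proteins, had 5.33, 9.64, 8.61 and 7.08 FPKM in ScOE 1 to 4, against 0.169, 0.644 and 0.611 FPKM in Ctrl 1 to 3. Their levels in ScOE were alike and moderate, and ICA69 was among the genes with a higher Ctrl level. VhaAC45RP (CG31030), related to the accessory subunit AC45 of the vacuolar proton pump that acidifies vesicles, had 10.9, 12.3, 17.6 and 15.4 FPKM in ScOE 1 to 4, against 0.169, 0.336 and 0.0910 FPKM in Ctrl 1 to 3. ATPsynepsilonL (CG31477), a relative of the epsilon subunit of the mitochondrial ATP synthase, had 2.61, 3.33, 4.19 and 7.12 FPKM in ScOE 1 to 4, against 0.221, 0.758 and 0.889 FPKM in Ctrl 1 to 3. The 2 differed in level by several-fold, and ATPsynepsilonL was highest in ScOE 4 and among the 5 genes nearest the Ctrl bound of the rule.

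Genes with the same symbol stem as these 2 were counted as a comparison chosen after their values were seen. Among 15 tested Vha genes limma called 2 rising and 3 falling, against 17.6% rising and 21.3% falling of all 8421 tested genes. Scaling the libraries to equal FPKM totals gave 4454 rising and 280 falling genes. VhaM9.7-a, a subunit of the pump's membrane sector, had 44.0, 54.2, 66.0 and 57.0 FPKM in ScOE 1 to 4, against 0.544, 1.42 and 1.17 FPKM in Ctrl 1 to 3 (log2 fold change 4.80 ± 0.20 SE, adjusted p = 1.07e-05). Vha68-1, a catalytic subunit, had 18.1, 26.1, 28.9 and 28.0 FPKM in ScOE 1 to 4, against 0.417, 1.09 and 0.800 FPKM in Ctrl 1 to 3 (log2 fold change 3.89 ± 0.21 SE, adjusted p = 3.38e-05). Both came close to the pattern of the 78 genes, and Vha68-2, a second gene for the same subunit, had 94.2 ± 17.7 FPKM in ScOE and 172.5 ± 22.2 FPKM in Ctrl (log2 fold change -0.88 ± 0.18 SE, adjusted p = 0.00753). Vha100-2 and VhaM9.7-c, the other 2 that fell, had 17.5 ± 2.93 and 21.9 ± 2.68 FPKM in ScOE and 52.3 ± 20.7 and 33.8 ± 2.54 FPKM in Ctrl, and VhaM9.7-c turned to a log2 fold change of 0.23 under equal FPKM totals. The fall of Vha68-2 was lost under equal FPKM totals (log2 fold change -0.01) and under quantile normalization (log2 fold change -0.54, adjusted p = 0.0714). VhaAC45, the accessory subunit itself, had 83.2 ± 20.9 FPKM in ScOE and 107.5 ± 11.3 FPKM in Ctrl and was not called (adjusted p = 0.155), but fell without ScOE 4 (adjusted p = 0.02). Of 11 tested ATPsyn genes none rose by limma at an adjusted p under 0.05 and 2 fell, ATPsynbeta with 531.7 ± 76.6 FPKM in ScOE and 942.3 ± 59.0 FPKM in Ctrl, and ATPsynB with 400.2 ± 67.6 and 679.7 ± 138.4 FPKM. Both of these log2 fold changes turned to 0.04 and 0.11 under equal FPKM totals, and neither was called under quantile normalization (adjusted p = 0.12 and 0.249).

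Surface proteins and channels were 3 of the 78. loaf (CG6024), a transmembrane protein known from the visual system, had 11.7, 10.7, 9.90 and 12.98 FPKM in ScOE 1 to 4, against 0, 0.0347 and 0.0220 FPKM in Ctrl 1 to 3. Its lowest ScOE level over its highest Ctrl level was 285.1, the largest such ratio among the 75 genes with a Ctrl value above 0. Ca-Ma2d (CG42817), an auxiliary alpha2delta subunit of voltage-gated calcium channels, had 4.13, 5.70, 5.35 and 4.195 FPKM in ScOE 1 to 4, against 0.0514, 0.268 and 0.218 FPKM in Ctrl 1 to 3. mAChR-C (CG12796), a muscarinic acetylcholine receptor, had 2.95, 4.72, 5.001 and 3.71 FPKM in ScOE 1 to 4, against 0.0945, 0.271 and 0 FPKM in Ctrl 1 to 3. In both genes ScOE 2 and ScOE 3 were the higher pair, and the 2 other muscarinic receptor genes, mAChR-A and mAChR-B, stayed at or under 0.256 FPKM in every library.

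Peptidases were CG34458, listed by RefSeq as a serine protease, and Nepl21 (CG14526), a neprilysin-like metallopeptidase of a family known for cutting peptides outside cells. CG34458 had 12.8, 14.1, 14.9 and 6.34 FPKM in ScOE 1 to 4, against 0, 0.168 and 0.494 FPKM in Ctrl 1 to 3, with ScOE 4 well below the other ScOE libraries. Nepl21 had 3.12, 2.14, 2.96 and 3.45 FPKM in ScOE 1 to 4, against 0.0902, 0.103 and 0.0606 FPKM in Ctrl 1 to 3 and was 1 of the 5 genes nearest the lower ScOE bound. Of 18 other Nepl genes only Nepl3 and Nepl16 passed the filter and both rose by limma, against 17.6% of all tested genes. Nepl3 had 15.4 ± 1.66 FPKM in ScOE and 6.44 ± 1.09 FPKM in Ctrl (adjusted p = 0.00101), and Nepl16 1.76 ± 0.38 and 0.643 ± 0.153 FPKM (adjusted p = 0.00927, and 0.062 under quantile normalization). Nepl16 was under 1 FPKM in every Ctrl library and passed the filter through its ScOE values alone, so its call was not independent of the filter.

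Transcription factors were Lmx1a (CG32105), a LIM-homeodomain factor, and Lime (CG18446), a zinc-finger factor known for linking immunity and metabolism. Lmx1a had 4.27, 7.36, 7.52 and 4.99 FPKM in ScOE 1 to 4, against 0.0784, 0.180 and 0.237 FPKM in Ctrl 1 to 3. Lime had 7.30, 8.56, 5.45 and 2.37 FPKM in ScOE 1 to 4, against 0.425, 0.315 and 0.302 FPKM in Ctrl 1 to 3. Lmx1a was highest in ScOE 2 and ScOE 3, whereas Lime was lowest in ScOE 4 and was among the 5 least even genes. Cep164 (CG9170), whose vertebrate relative sits on the distal appendages of centrioles and acts in making cilia, had 2.44, 4.21, 3.09 and 4.26 FPKM in ScOE 1 to 4, against 0.0569, 0.0412 and 0.0161 FPKM in Ctrl 1 to 3, with ScOE 2 and ScOE 4 highest.

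**Figure D2:**
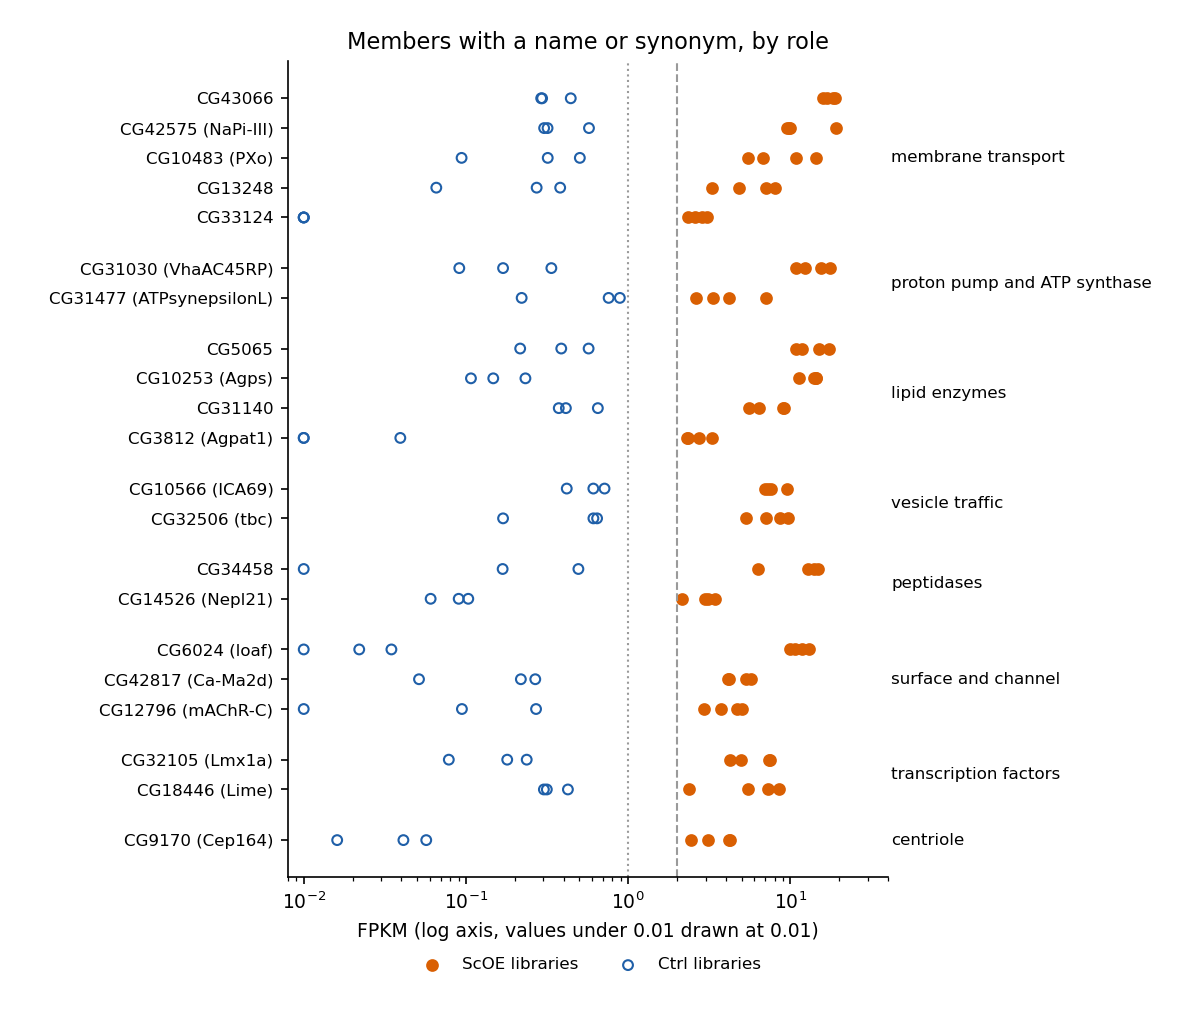
FPKM (log axis) of the 21 genes with a name or synonym, grouped by role, with 1 point for each of the 4 ScOE libraries (filled) and 3 Ctrl libraries (open); the lines mark the bounds of the rule at 1 and 2 FPKM. CG43066 (16.0 to 18.9 FPKM) and NaPi-III (19.1 FPKM in ScOE 4) reach the highest levels in ScOE, and loaf, Cep164, CG33124 and Agpat1 lie lowest in Ctrl.

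Apart from CG43066, the 10 highest genes in ScOE had no name and no synonym that names a function, and no role is given to them here. CG16756 (chromosome X, bases 5427517 to 5428217, plus strand; 152 residues) led with 21.1, 47.1, 33.0 and 27.4 FPKM in ScOE 1 to 4, against 0.152, 0.873 and 0.205 FPKM in Ctrl 1 to 3. Its mean was 32.1 ± 11.1 FPKM in ScOE and 0.410 ± 0.402 FPKM in Ctrl (SD, n = 4 and n = 3), and its log2 difference of 4.53 ± 0.30 (SE) was the largest of the 78. CG11317 (chromosome 3R, bases 31090712 to 31097321, minus strand) had 17.2, 30.1, 22.3 and 22.9 FPKM in ScOE 1 to 4, against 0.721, 0.792 and 0.767 FPKM in Ctrl 1 to 3. CG12836 had 26.7, 18.8, 19.3 and 12.2 FPKM in ScOE 1 to 4, against 0.192, 0.441 and 0.517 FPKM in Ctrl 1 to 3, and unlike most of the 78 it was highest in ScOE 1. CG14312 had 16.2, 12.98, 23.2 and 17.4 FPKM in ScOE 1 to 4, against 0.667, 0.191 and 0 FPKM in Ctrl 1 to 3. CG14042 had 14.7, 19.3, 14.8 and 17.7 FPKM in ScOE 1 to 4, against 0.462, 0.673 and 0.724 FPKM in Ctrl 1 to 3. CG14321 had 15.9, 15.3, 19.1 and 9.76 FPKM in ScOE 1 to 4, against 0.0965, 0.111 and 0.130 FPKM in Ctrl 1 to 3. These genes kept above 9 FPKM in every ScOE library, and CG14321 was the lowest of them in Ctrl. CG45116 had 17.6, 14.4, 18.6 and 8.58 FPKM in ScOE 1 to 4, against 0, 0 and 0.557 FPKM in Ctrl 1 to 3. CG3556 had 13.2, 13.6, 14.6 and 17.6 FPKM in ScOE 1 to 4, against 0.104, 0.297 and 0.296 FPKM in Ctrl 1 to 3. CG13409 had 11.1, 15.2, 17.6 and 13.8 FPKM in ScOE 1 to 4, against 0.229, 0.873 and 0.716 FPKM in Ctrl 1 to 3. ScOE 4 was the lowest ScOE library for CG45116, and ScOE 1 was the lowest for CG3556 and CG13409. The 5 largest log2 differences were those of CG16756, CG14312 at 3.85, CG12836 at 3.83, CG14321 at 3.81 and CG43066 at 3.79.

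Levels in ScOE were uneven for some genes. The highest ScOE library was less than double the lowest for 55 of the 78 and at least 3 times the lowest for 4. CG34215 had 3.06, 23.3, 14.2 and 3.26 FPKM in ScOE 1 to 4, against 0.606, 0.231 and 0.271 FPKM in Ctrl 1 to 3, a ratio of 7.64, the largest of all. CG16957 had 3.26, 3.91, 2.23 and 8.14 FPKM in ScOE 1 to 4, against 0, 0.192 and 0.112 FPKM in Ctrl 1 to 3. CG14036 had 2.86, 2.29, 3.99 and 6.98 FPKM in ScOE 1 to 4, against 0.414, 0.475 and 0.557 FPKM in Ctrl 1 to 3. CG43207 had 5.33, 9.08, 14.9 and 6.91 FPKM in ScOE 1 to 4, against 0.772, 0.884 and 0.778 FPKM in Ctrl 1 to 3. CG34215 and CG43207 were highest in ScOE 2 or ScOE 3 and CG16957 and CG14036 were highest in ScOE 4. Among the genes listed at 0 in every Ctrl library, CG13502 had 3.05, 2.98, 3.70 and 7.77 FPKM in ScOE 1 to 4, and CG44439 had 2.90, 4.46, 2.95 and 5.39 FPKM.

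The rule set no order among the 4 ScOE libraries, but its bound of 2 FPKM in each of them dropped genes that were low in 1 library. The 22 CG-numbered genes that missed by 1 ScOE library are not among the 78, and the other tested genes met no such bound. The shares below depend in part on that bound. Within this limit, the order differed between the 78 genes and other genes. ScOE 1 was the lowest ScOE library for 46 of the 78 (59.0%), against 19.0% of the 8343 other tested genes, and the highest for 3 (3.85%), against 33.4%. ScOE 3 was the highest for 34 (43.6%), against 22.5% of the others. ScOE 2 and ScOE 3 were the higher pair for 36 of the 78 and ScOE 3 and ScOE 4 for 21. The order was not that of sc, whose level was highest in ScOE 1 and lowest in ScOE 4. Of the 9 peptide hormone genes called rising, all 9 were highest in ScOE 3 and 8 were lowest in ScOE 1, as were 9 and 13 of the 16 called genes of regulated secretion. Of the 11 called enteroendocrine factors 8 were highest in ScOE 4, and of the 16 called proneural and Notch response genes 6 were highest in ScOE 1 and 7 in ScOE 4. The sum of enteroendocrine markers was 3610, 7411, 9952 and 4745 FPKM in ScOE 1 to 4. Genes within a library are not independent, so these shares describe 4 libraries and no test was made of them. In Ctrl, where all values were under 1 FPKM, Ctrl 1 was the lowest for 41 of the 78 (52.6%), against 36.4% of other tested genes. The enteroendocrine sum was also lowest there, at 162.0 FPKM against 796.8 FPKM in Ctrl 2 and 1234 FPKM in Ctrl 3. The enterocyte sum had the same lowest libraries. It was 270.1, 4532, 3513 and 9118 FPKM in ScOE 1 to 4 and 665.3, 4686 and 27413 FPKM in Ctrl 1 to 3. The stem cell and enteroblast sum was instead highest in ScOE 1 and Ctrl 1, at 1002 and 1900 FPKM. The part of any cell type in the order of the 78 genes was not tested.

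**Figure D3:**
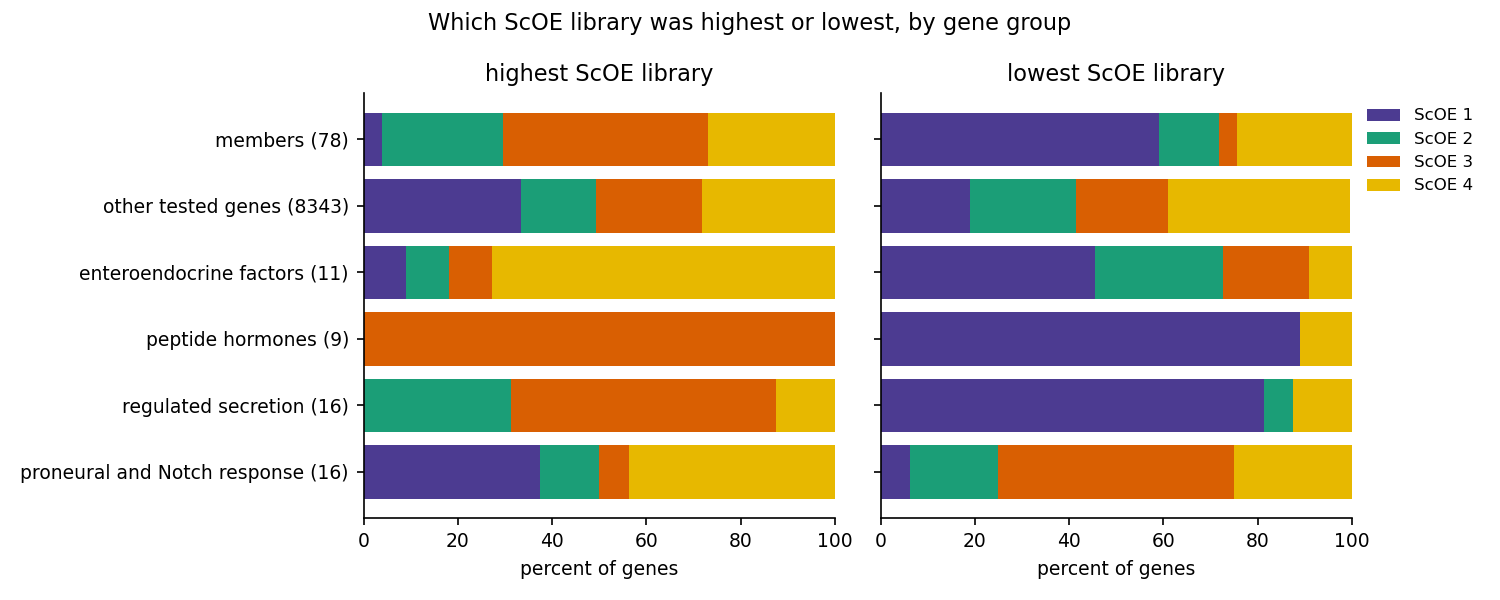
Share of genes (percent) for which each of the 4 ScOE libraries was the highest (left) or the lowest (right), for the 78 members, the 8343 other tested genes and the rising genes of 4 lists, with the number of genes in brackets; bars stop short of 100 where libraries tied. ScOE 1 was the lowest library for 59.0% of the 78 and 19.0% of the other tested genes.

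To place the 78 genes, 4 lists of named genes were counted in the limma fit over all 8421 tested genes. Of 14 tested enteroendocrine factors 11 rose and none fell (median log2 fold change 2.84); pros, the homeodomain factor that marks the enteroendocrine lineage, had 49.7 ± 7.89 FPKM in ScOE and 1.71 ± 0.50 FPKM in Ctrl (log2 fold change 4.23 ± 0.18 SE, adjusted p = 1.07e-05). Of 13 tested peptide hormones 9 rose and 2, ITP and Nplp2, fell (median 2.56). Of 20 tested genes of regulated secretion 16 rose and none fell (median 2.48), among them IA-2, a transmembrane protein of dense-core vesicles, with 48.1, 106.8, 116.7 and 68.7 FPKM in ScOE 1 to 4. Of 21 tested proneural and Notch response genes 16 rose and 4 fell (median 2.58), and insb, a neural repressor, had 175.0, 152.3, 195.5 and 142.0 FPKM in ScOE 1 to 4. The counts moved by at most 2 genes in any list under the 3 other scalings. Of all tested genes 17.6% rose and 21.3% fell, with a median of -0.08. Some list genes, such as ase, tap and phyl, were under 1 FPKM in every Ctrl library. They passed the filter through their ScOE values alone, so their rising calls were not independent of the filter. These lists were chosen with earlier results known, so their counts are context and not independent evidence.

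Near the lower ScOE bound of the rule lay CG14234 with 2.63, 2.00, 4.07 and 5.57 FPKM in ScOE 1 to 4, against 0.0696, 0.0478 and 0.0561 FPKM in Ctrl 1 to 3. CG31809 had 2.15, 3.68, 3.43 and 2.02 FPKM in ScOE 1 to 4, against 0.195, 0.112 and 0.328 FPKM in Ctrl 1 to 3. CG30419 had 2.15, 2.28, 2.72 and 2.23 FPKM in ScOE 1 to 4, against 0.0132, 0 and 0.0533 FPKM in Ctrl 1 to 3. These levels were a few FPKM at most in ScOE. Near the upper Ctrl bound, CG3955 had 4.30, 4.21, 4.69 and 5.13 FPKM in ScOE 1 to 4, against 0.363, 0.693 and 0.974 FPKM in Ctrl 1 to 3. CG14591 had 9.32, 13.7, 13.2 and 12.7 FPKM in ScOE 1 to 4, against 0.269, 0.963 and 0.452 FPKM in Ctrl 1 to 3. CG34045, the gene with the smallest log2 difference at 1.10, had 2.19, 2.60, 3.69 and 2.42 FPKM in ScOE 1 to 4, against 0.767, 0.879 and 0.515 FPKM in Ctrl 1 to 3. CG14591 was well clear of the ScOE bound, whereas CG34045 was near both bounds. Just outside, 22 CG-numbered genes missed by 1 ScOE library and 25 by 1 Ctrl library. Nearest below 2 FPKM were CG12769 with 1.94 FPKM in ScOE 4, CG8401 with 1.94 FPKM in ScOE 2, CG14195 with 1.90 FPKM in ScOE 1, CG14186 with 1.89 FPKM in ScOE 1 and CG13135 with 1.88 FPKM in ScOE 4. CG8401 had 0 FPKM in every Ctrl library, and CG13135 reached 16.2 FPKM in ScOE 3. Nearest above 1 FPKM were CG13229 and CG14957 with 1.02 FPKM in Ctrl 2, CG6231 with 1.05 FPKM in Ctrl 1, and CG31259 with 1.05 FPKM and CG13707 with 1.07 FPKM in Ctrl 3. CG13229 had 8.20, 18.3, 14.7 and 12.2 FPKM in ScOE 1 to 4.

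**Figure D4:**
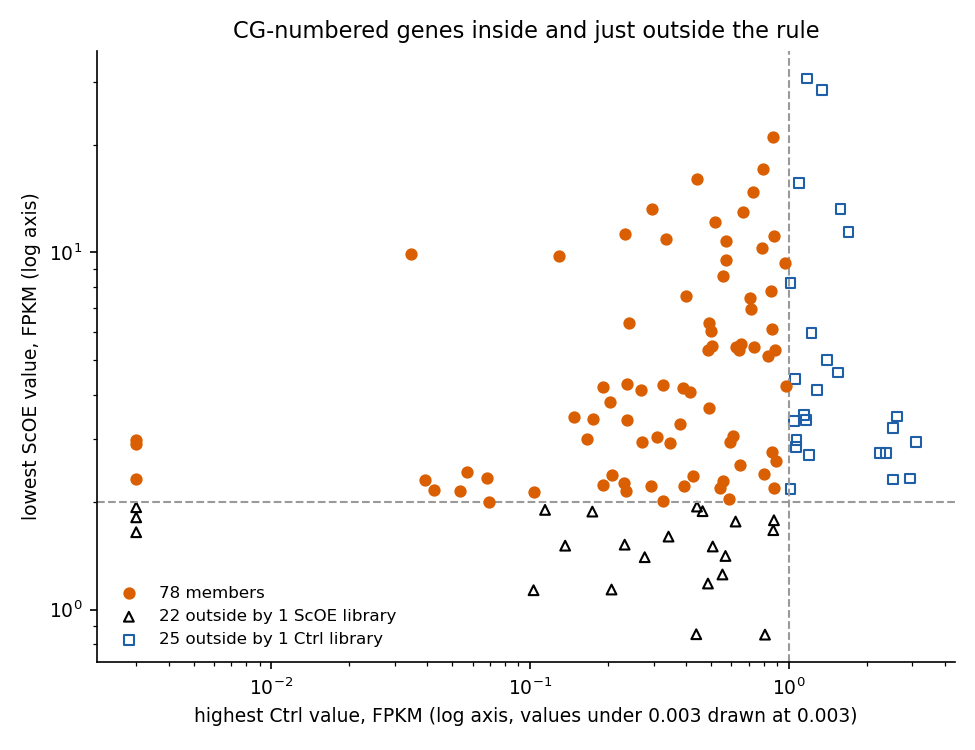
Lowest ScOE value against highest Ctrl value, both in FPKM on log axes, for the 78 members (filled points), the 22 CG-numbered genes outside by 1 ScOE library (triangles) and the 25 outside by 1 Ctrl library (squares); dashed lines mark the bounds of 1 and 2 FPKM. Members and near misses form a continuous spread across both bounds.

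Some members overlap another gene on the genome, and use of strand in the counting is not given in the sources used here, so reads of overlapping genes cannot be told apart. Of the 78, 36 overlapped another gene of the table, 18 overlapped a gene above 2 FPKM in every ScOE library, and 13 shared exon bases with such a gene. The values of these 18 are uncertain for that reason, to an extent that was not measured, and 60 had no such overlap. For CG30008, CG6765, CG32182, CG34045 and CG42458 no exon bases were shared with such a gene. On the same strand, CG14042 shared exon bases with SP555, which had 11.0, 10.1, 9.53 and 17.3 FPKM in ScOE 1 to 4 and was at 0 or under 1e-10 FPKM in Ctrl. CG6044, with 11.4, 13.6, 12.4 and 7.45 FPKM in ScOE 1 to 4, against 0.710, 0.0428 and 0.178 FPKM in Ctrl 1 to 3, shared exon bases with ventrally-expressed-protein-D, which had 149.5, 179.2, 156.7 and 180.7 FPKM in ScOE 1 to 4, against 2.54, 1.96 and 1.24 FPKM in Ctrl 1 to 3. The 2 pairs differ in extent. CG14042 and SP555 are annotated on the same bases of 2L, 5037709 to 5040818, whereas CG6044 ends at base 22408540 of 2R and ventrally-expressed-protein-D starts at 22408525. In both pairs the overlapping gene rose as well, and reads of the 2 genes cannot be told apart where they share bases.

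The 18 members had 21 such overlaps, of which 19 were on the opposite strand. CG14042 also overlapped CG31650 on that strand, which had 15.95 to 21.6 FPKM in ScOE and 4.755 to 10.7 FPKM in Ctrl and was called rising by limma (adjusted p = 0.00585). CG14312 overlapped the translation factor gene eIF-1A, which had 714.3 to 875.8 FPKM in ScOE and 988.8 to 1235 FPKM in Ctrl. CG10307, with 3.30, 2.38, 4.55 and 2.90 FPKM in ScOE 1 to 4, against 0.207, 0.0947 and 0.111 FPKM in Ctrl 1 to 3, overlapped the mitochondrial import gene Tim10 at 125.1 to 163.1 FPKM in ScOE and 147.0 to 216.9 FPKM in Ctrl. CG31125, with 5.03, 4.64, 5.36 and 4.21 FPKM in ScOE 1 to 4, against 0.192, 0.176 and 0.155 FPKM in Ctrl 1 to 3, overlapped the chromatin gene ash2 at 143.5 to 197.6 FPKM in ScOE and 307.0 to 379.4 FPKM in Ctrl. In the pairs of CG14312, CG10307 and CG31125 the overlapping gene averaged lower in ScOE, whereas the member was higher there; Tim10 was not called by limma (adjusted p = 0.28). CG42458, with 3.16, 4.73, 4.29 and 2.40 FPKM in ScOE 1 to 4, against 0.799, 0.279 and 0.364 FPKM in Ctrl 1 to 3, overlapped Rac2 outside exons, and Rac2 was also lower in ScOE at 107.4 to 147.7 FPKM, against 224.2 to 281.9 FPKM in Ctrl. CG14636, with 5.38, 4.97, 4.90 and 2.26 FPKM in ScOE 1 to 4, against 0.230, 0.0879 and 0.155 FPKM in Ctrl 1 to 3, overlapped CG12582 at 17.6 to 19.3 FPKM in ScOE and 23.4 to 39.5 FPKM in Ctrl. CG9919, with 2.23, 2.04, 2.63 and 2.30 FPKM in ScOE 1 to 4, against 0.489, 0.479 and 0.589 FPKM in Ctrl 1 to 3, overlapped CalpC at 2.75 to 4.80 FPKM in ScOE and 4.70 to 6.38 FPKM in Ctrl. Rac2, CG12582 and CalpC all averaged lower in ScOE, and CalpC was not called by limma (adjusted p = 0.0529). CG42458 also overlapped sphinx1, which rose, with 2.32 to 4.80 FPKM in ScOE and 0.464 to 2.496 FPKM in Ctrl (adjusted p = 0.0355), and CG14636 also overlapped aux, which had 13.9 to 16.4 FPKM in ScOE and 13.1 to 15.9 FPKM in Ctrl. ICA69 overlapped CG10565, which was at 17.6 to 29.6 FPKM in ScOE and 24.5 to 50.8 FPKM in Ctrl.

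In other pairs the overlapping gene was higher in ScOE or nearly level. CG10137, with 2.19, 2.33, 2.89 and 3.24 FPKM in ScOE 1 to 4, against 0.395, 0.543 and 0.488 FPKM in Ctrl 1 to 3, overlapped CG10165 at 76.3 to 153.8 FPKM in ScOE and 38.6 to 53.9 FPKM in Ctrl. CG7582, with 5.14, 13.5, 13.4 and 6.87 FPKM in ScOE 1 to 4, against 0.742, 0.638 and 0.831 FPKM in Ctrl 1 to 3, overlapped the condensin gene Cap-D2 at 4.999 to 7.14 FPKM in ScOE and 1.52 to 2.38 FPKM in Ctrl. CG7120, with 3.08, 3.499, 2.93 and 5.46 FPKM in ScOE 1 to 4, against 0.346, 0.102 and 0.0869 FPKM in Ctrl 1 to 3, overlapped mkg-p at 12.5 to 16.0 FPKM in ScOE and 8.62 to 10.8 FPKM in Ctrl. These 3 overlapping genes were called rising by limma (adjusted p = 0.00821, 0.000891 and 0.0259). CG34309 had 5.89, 5.37, 6.28 and 4.17 FPKM in ScOE 1 to 4, against 0.389 FPKM in Ctrl 2 and less than 1e-10 FPKM in Ctrl 1 and Ctrl 3, and overlapped CG9813, which was called rising too (adjusted p = 0.0265). In the next 3 pairs the overlapping gene differed little between the groups. CG30008, with 2.94, 3.22, 4.40 and 4.02 FPKM in ScOE 1 to 4, against 0, 0.361 and 0.592 FPKM in Ctrl 1 to 3, overlapped CG1513 at 37.1 to 42.1 FPKM in ScOE and 36.6 to 38.6 FPKM in Ctrl. CG6765, with 7.92, 6.11, 6.77 and 7.28 FPKM in ScOE 1 to 4, against 0.437, 0.505 and 0.862 FPKM in Ctrl 1 to 3, overlapped CG6683 at 7.65 to 8.85 FPKM in ScOE and 6.64 to 7.62 FPKM in Ctrl. CG32182, with 5.42, 6.83, 5.58 and 6.51 FPKM in ScOE 1 to 4, against 0.541, 0.487 and 0.623 FPKM in Ctrl 1 to 3, overlapped the adenosine deaminase-related gene Adgf-A at 18.9 to 26.4 FPKM in ScOE and 23.2 to 25.2 FPKM in Ctrl. The members of these 3 pairs were several-fold higher in ScOE. CG34045 overlapped Rgk1 at 5.79 to 9.97 FPKM in ScOE and 2.83 to 8.60 FPKM in Ctrl, and CG13248 overlapped the non-coding CR45973 at 2.67 to 5.07 FPKM in ScOE and 0.749 to 4.67 FPKM in Ctrl.

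Neighbouring genes were not used by the rule. The genes next to each member on either side in order of start position, members left out, were 156, of which 77 passed the filter. This order can pass over an overlapping gene, as it did with eIF-1A at CG14312. By limma 22 of the 77 were called rising (28.6%) and 16 falling, against 17.6% rising and 21.3% falling of all tested genes. With the members left out, 16.85% of the tested genes rose. The median log2 fold change of the 77 neighbours was 0.12, against -0.08 over all tested genes. Without the 19 tested neighbours that overlap a member, 15 of 58 rose (25.9%), and within 10000 bases 19 of 73 rose. With equal FPKM totals the shares were 59.7% of the neighbours and 52.9% of all tested genes.

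The 5 neighbours with the largest differences included SP555 and ventrally-expressed-protein-D above, with log2 fold changes of 3.66 and 5.87. SP555 spans the same bases as its member CG14042, so it is not a separate locus. CR31451, 270 bases from CG31140, had 48.5 ± 9.74 FPKM in ScOE and 2.56 ± 0.82 FPKM in Ctrl (log2 fold change 3.81 ± 0.22 SE, adjusted p = 4.54e-05). CG30285, 227 bases from CG10307, had 67.6 ± 6.25 FPKM in ScOE and 7.39 ± 3.46 FPKM in Ctrl (log2 fold change 3.12 ± 0.28 SE, adjusted p = 0.000263). In the other direction CG7142, 3455 bases from CG14312, fell by 2.82 on the log2 scale (adjusted p = 0.000135), with means of 9.02 FPKM in ScOE and 68.9 FPKM in Ctrl. Chosen after its value was seen, Ptx1, a homeodomain factor of the enteroendocrine lineage and a neighbour of CG33483 at 10592 bases, had 33.9 ± 7.41 FPKM in ScOE and 11.2 ± 2.99 FPKM in Ctrl (adjusted p = 0.00195).

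**Figure D5:**
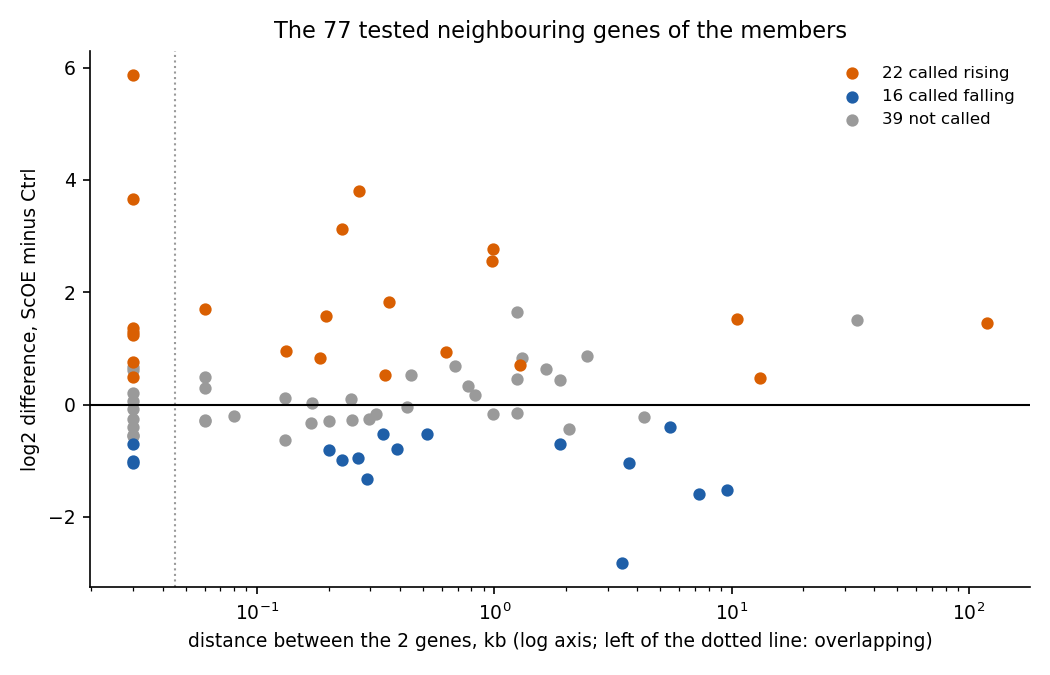
Log2 fold change, ScOE minus Ctrl, of the 77 tested neighbouring genes against their distance from the member in kilobases (log axis; overlapping genes left of the dotted line), coloured by limma's call. The 22 rising genes include overlapping and distant neighbours, and the 2 highest overlapping ones are ventrally-expressed-protein-D and SP555.

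Few members lay near each other. Within 100000 bases of each other were 6 pairs, the closest being CG14042 and CG14036 with 13760 bases between them, and CG18446 (Lime) and CG30008 with 16231 bases. CG5065 and CG34458 lay 47138 bases apart on 2R, and CG14312 and CG14314 lay 64963 bases apart on 3R with 18 genes starting between them, of which 2 rose and 5 fell. In each of the 6 intervals 0 to 2 genes were called rising.

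The 23 members not given above by library had ScOE means of 2.73 to 13.4 FPKM with a median of 4.89 FPKM, a highest Ctrl value of 0.0427 to 0.862 FPKM and log2 differences of 1.21 to 3.33.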

How the data were processed

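Per the labels' protocols, midguts were digested with elastase, GFP-labelled cells were sorted, and RNA was extracted and amplified before library making. Per the submitters' processing notes, reads were processed with TopHat2 2.0.10 and Cufflinks 2.2.1 on BDGP6. The authors deposited FPKM values for 17481 genes. Whether values were scaled further between libraries, and whether strand was used, are not given in the sources used here; FPKM keeps no fragment numbers, so depth is unknown.

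Members were found on the FPKM as deposited. limma 3.58.1 in R 4.3.3 was fitted, with a variance trend and two-sided, to log2(FPKM + 1) of the 8421 genes that reached 1 FPKM in 3 libraries or more, with Benjamini-Hochberg adjusted p under 0.05, no covariate and ScOE minus Ctrl as the log2 fold change; the pseudocount understates the change of low genes. The fit was tested on simulated data. Coordinates (1-based), strands, proteins and current symbols came from Ensembl release 115 on BDGP6, in which all 78 members were found, and synonyms from RefSeq.

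Members, lists and alternatives were chosen with earlier results of these data known. Named are the 10 highest members in ScOE, the 5 with the largest difference, the 5 nearest each bound, the 5 least even, those overlapping a gene above 2 FPKM in every ScOE library, the 5 genes nearest each bound outside, and the 5 neighbours with the largest called difference; members with a name or synonym, those listed at 0 in all Ctrl libraries and genes sharing a symbol stem were added after values were seen. Of 81 list entries on named-gene context 3 were not matched. Tried besides were a pseudocount of 0.1 or 5, a filter of 5 FPKM or none, 3 scalings, a replicate block and each library left out. Figures were drawn with matplotlib 3.10.9.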

Additional observations from a re-analysis of the deposited data

Results flagged for a closer look

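In each of the 78 genes the highest and lowest ScOE library was compared with the other 3. In 6 genes the gap to the nearest other library was above Dixon's critical share of the whole range, which chance passes in about 1 in 20 groups. NaPi-III (CG42575) stood out in ScOE 4 at 19.1 FPKM, above the others at 9.52 to 9.97 FPKM. CG13502 stood out high in ScOE 4 at 7.77 FPKM, and so did CG32187 at 4.01 FPKM. CG14636 stood out low in ScOE 4 at 2.26 FPKM. CG33483 stood out high in ScOE 3 at 6.88 FPKM, the library with the highest visceral muscle sum, and CG42450 stood out low in ScOE 1 at 4.07 FPKM. The part of the muscle markers in CG33483 was not tested. ScOE 4 held 4 of the 6, with CG14636 low and the others high, and it was also the ScOE library with the lowest sc level, at 66.0 FPKM. The part of the sc level in these values was not tested.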

How the results depend on the processing

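With equal FPKM totals the median over all tested genes moved to 0.68 on the log2 scale, against -0.08 as deposited; the number of genes called rising was 4454, against 1484, and of neighbours called rising 46, against 22. Rising calls were 45.2% of all calls as deposited, 94.1% with equal totals, 50.7% with upper quartile scaling and 53.0% with quantile normalization. The number of members was 121 with equal totals, 53 with quantile normalization and 78 with upper quartile scaling, and all 78 were among the 121. Other bounds gave 44 members (under 0.5 FPKM in Ctrl), 124 (under 2 FPKM in Ctrl), 132 (at least 1 FPKM in ScOE) and 33 (at least 5 FPKM in ScOE). The median log2 difference of the members was 4.41 at a pseudocount of 0.1, 1.01 at a pseudocount of 5 and 2.76 with equal totals. By construction, looser bounds admit more genes, a smaller pseudocount enlarges differences of low genes, and Ctrl totals are larger.

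Leaving out each library in turn gave 1148 to 1511 rising genes, 17 to 22 rising neighbours, 51 to 52 rising list genes, 78 to 91 members and a median of 2.33 to 2.46. Leaving out both libraries numbered 1, added after seeing the data, gave 1286, 21, 51 and 91, with a median of 2.41. Since the rule asks for every library, leaving libraries out can only keep or add members, so those member counts were bound to be 78 or more. With the replicate block 1191 genes, 20 neighbours and 51 list genes rose. Deviations of same-numbered libraries correlated at 0.524, -0.041 and 0.082. Of the libraries with a partner ScOE 1, Ctrl 1 and ScOE 3 correlated best with their own number and the others did not. The labels give only the numbers, and correlations over so few libraries cannot show whether same-numbered libraries were handled together. Without sc, 50 of 66 list genes rose. Of 35 genes outside the members that were followed singly, the direction of 3 called ones turned, all with equal totals: VhaM9.7-c (0.23), ATPsynbeta (0.035) and ATPsynB (0.11). Their cause was not tested. The planned count of closest protein relatives was not run because no protein sequences were at hand.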
